A study of Mus musculus with 24 samples.

Results

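The nuclear genes of the respiratory chain and ATP synthase were followed in the livers of mice with and without hepatic Ppara, fed or fasted. They were taken from the array by name: all genes beginning with Nduf, Uqcr, Cox4, Cox5, Cox6, Cox7, Cox8 or Atp5, and Sdha, Sdhb, Sdhc and Sdhd. This gave 92 gene names of the 27248 on the array, measured by 143 probes. A gene was tested if a probe stood well above background in 5 or more of the 22 mice, which held for 91 members and for 17215 genes in all. Cox8c, a testis isoform, was well above background in 1 mouse and was not tested. The names cover 36 subunits and 7 assembly factors of complex I, the 4 subunits of complex II, 8 of complex III, 18 genes of complex IV and 15 of ATP synthase. The remaining 3 tested names encode no stable subunit: Atp5s (coupling factor B), Atp5sl (a factor for the membrane arm of complex I) and Atp5c1-ps (a pseudogene of Atp5c1). Cox5b was not found under that name.

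Liver RNA came from male mice of the C57Bl/6J background, 8 weeks old, kept on chow with alternating light and dark and killed at ZT16, in the dark period. The 4 groups were 5 fed PPARaLWT mice (wild type for Ppara in the liver, LWT below), 5 fasted PPARaLWT mice, 6 fed PPARaLKO mice (liver knockout of Ppara, LKO below) and 6 fasted PPARaLKO mice. Fasted mice had no food for 24 h. The series text counts 24 mice, but the labels number 22, of which 2 were each hybridised on 2 arrays, and these arrays were averaged. The driver of the liver deletion and the deleted exons are not given in the sources used here. The samples are whole livers, so fewer cells of a type and less RNA per cell cannot be told apart.

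Complex I takes electrons from NADH and complex II takes them from succinate. Both pass them through ubiquinone to complex III, then through cytochrome c to complex IV, which reduces oxygen. Complexes I, III and IV pump protons, and ATP synthase uses the proton gradient to make ATP. In a fasting liver this machinery oxidises the NADH and reduced flavoproteins made by fatty acid oxidation, many genes of which are targets of the nuclear receptor PPARα. NRF1, GABP (also called NRF-2), YY1 and the estrogen-related receptors are textbook regulators of nuclear respiratory genes.

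Promoters of 5 members described below are shown first. RefSeq windows (build GRCm38.p6, 250 bases before to 50 after the start) were found for 75 of the 92 names. All 92 were matched to a RefSeq gene, 89 by symbol and 3 by transcript accession. The motifs searched on both strands were the NRF1 palindrome, CCGGAAG (GABP), TCAAGGTCA (the estrogen-related receptor ESRRA), AAGATGGCG (YY1) and the PPAR direct repeat with a spacer of 1 base. The NRF1 letters stood in 7 of the 75 windows (9.33%), against 1.07% of the windows of all 27025 genes. The GABP letters stood in 17 (22.7%, against 9.93%), the YY1 letters in 8 (10.7%, against 1.64%) and the ESRRA letters in 2 (2.67%, against 0.466%). The PPAR letters stood in 0 of the 75 and in 0.0481% of all windows. A match only says that these letters are present, and matches after the start are counted but not printed.

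The 250 bases before the start are printed 5′ to 3′ for 5 members, each lower in fasted LKO than in fasted LWT, with motif matches in capitals. Cox6b2 and Cox7a1 had the largest changes among complex IV genes measured in all mice, and no searched motif lay in either stretch. Cox6b2 lies on the minus strand at chr7:4753095-4753344 and Cox7a1 on the plus strand at chr7:30183921-30184170.
Cox6b2: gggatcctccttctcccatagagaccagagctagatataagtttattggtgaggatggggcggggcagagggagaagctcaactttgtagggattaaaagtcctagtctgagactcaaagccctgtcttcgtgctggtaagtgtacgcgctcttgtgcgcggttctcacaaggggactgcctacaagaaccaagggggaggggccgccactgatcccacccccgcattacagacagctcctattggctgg
Cox7a1: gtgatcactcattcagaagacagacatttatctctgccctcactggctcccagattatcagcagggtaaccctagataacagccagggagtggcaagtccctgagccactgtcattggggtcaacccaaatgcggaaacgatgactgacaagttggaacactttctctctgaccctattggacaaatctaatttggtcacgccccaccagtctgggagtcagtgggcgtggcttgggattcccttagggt
Atp5k (minus strand, chr5:108434400-108434649) holds the NRF1 letters.
Atp5k: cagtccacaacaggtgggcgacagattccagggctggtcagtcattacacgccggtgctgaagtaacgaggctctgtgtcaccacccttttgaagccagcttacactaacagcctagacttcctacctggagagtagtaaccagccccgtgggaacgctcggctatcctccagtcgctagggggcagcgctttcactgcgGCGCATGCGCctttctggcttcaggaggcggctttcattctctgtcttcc
Sdhd (minus strand, chr9:50603850-50604099) holds the GABP letters and Atp5g3 (minus strand, chr2:73911327-73911576) the ESRRA letters, both on the opposite strand.
Sdhd: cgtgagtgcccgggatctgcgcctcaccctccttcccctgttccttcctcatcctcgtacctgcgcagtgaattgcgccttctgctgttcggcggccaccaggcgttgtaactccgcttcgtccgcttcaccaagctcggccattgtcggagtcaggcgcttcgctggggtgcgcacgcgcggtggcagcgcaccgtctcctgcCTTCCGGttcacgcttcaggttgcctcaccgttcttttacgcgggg
Atp5g3: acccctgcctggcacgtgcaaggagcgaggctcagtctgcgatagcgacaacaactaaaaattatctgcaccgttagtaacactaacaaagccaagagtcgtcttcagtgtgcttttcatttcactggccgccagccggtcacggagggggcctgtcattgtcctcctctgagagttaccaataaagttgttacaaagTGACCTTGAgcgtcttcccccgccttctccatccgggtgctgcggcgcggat

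A level is the log2 processed signal of a probe relative to the 75th percentile of its array, so 0 is the brightness of that percentile. A change is a difference of mean levels in log2 units, given with its standard error (SE) from limma fitted to all 22 mice. Genes with a Benjamini-Hochberg adjusted p under 0.05, taken over all 17215 tested, are named as called. The 24 arrays lay on 3 slides with 2 arrays of each group on every slide, and their 75th percentiles ranged from 309.7 to 412.6 intensity units. Values within slides are taken over arrays and share mice. Fasted LWT replicate 1 was on slides 1 and 2, and fed LWT replicate 3 on slides 2 and 3. Ppara differed between LKO and LWT by -0.67 when fed and by -0.88 when fasted, and its levels did not overlap between genotypes in either state (limma adjusted p = 0.0061 and 4.6e-05). Whether the probe lies in the deleted part is not given in the sources used here. Of the 6 hepatocyte markers tested, 0 were called between genotypes by limma or limma-trend (at an unadjusted p below 0.05, 0 when fed and 1 when fasted), and their summed signal, in multiples of the 75th percentile, ranged from 4026 to 4753 over the 22 mice. Fed LKO replicate 3 stood apart from the other fed LKO mice. The mean deviation of its 36 complex I subunits from their 22-mouse means was -0.15, against 0.04 to 0.14 in the other 5. Total counts of called members that rest on this mouse are given with and without it. Counts by class and counts of members without overlap between groups are given with it only.

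Respiratory chain and ATP synthase genes were lowest in the fasted LKO livers. Against fasted LWT, 66 of the 91 members were lower and 0 were higher, with a median difference of -0.25. Over all genes tested, 21.4% were called lower and 16.5% higher (37.9% in either direction), with a median of -0.03. At an unadjusted p below 0.05, 71 members were lower and 0 higher, and limma-trend with robust variances also called 66 lower and 0 higher. Other processing gave fewer calls in the same direction. It gave 48 lower with quantile normalization, 56 with array median scaling and 45 of the 89 members in the authors' deposited table. The median was -0.15 with quantile normalization and in the deposited table. The shares of all genes called lower were 18.6%, 17.8% and 18.5%, in the same order. In 60 of the 91 every fasted LKO mouse lay below every fasted LWT mouse, which held for 14.8% of all genes, and in 0 did every one lie above (10.6% of all genes). The mean of fasted LKO was the lowest of the 4 group means in 74 of the 91, against 33.3% of all genes. The largest differences were those of Cox6b2, Cox7a1 and Ndufb3, at 4.36-fold, 1.86-fold and 1.72-fold.

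**Figure D1:**
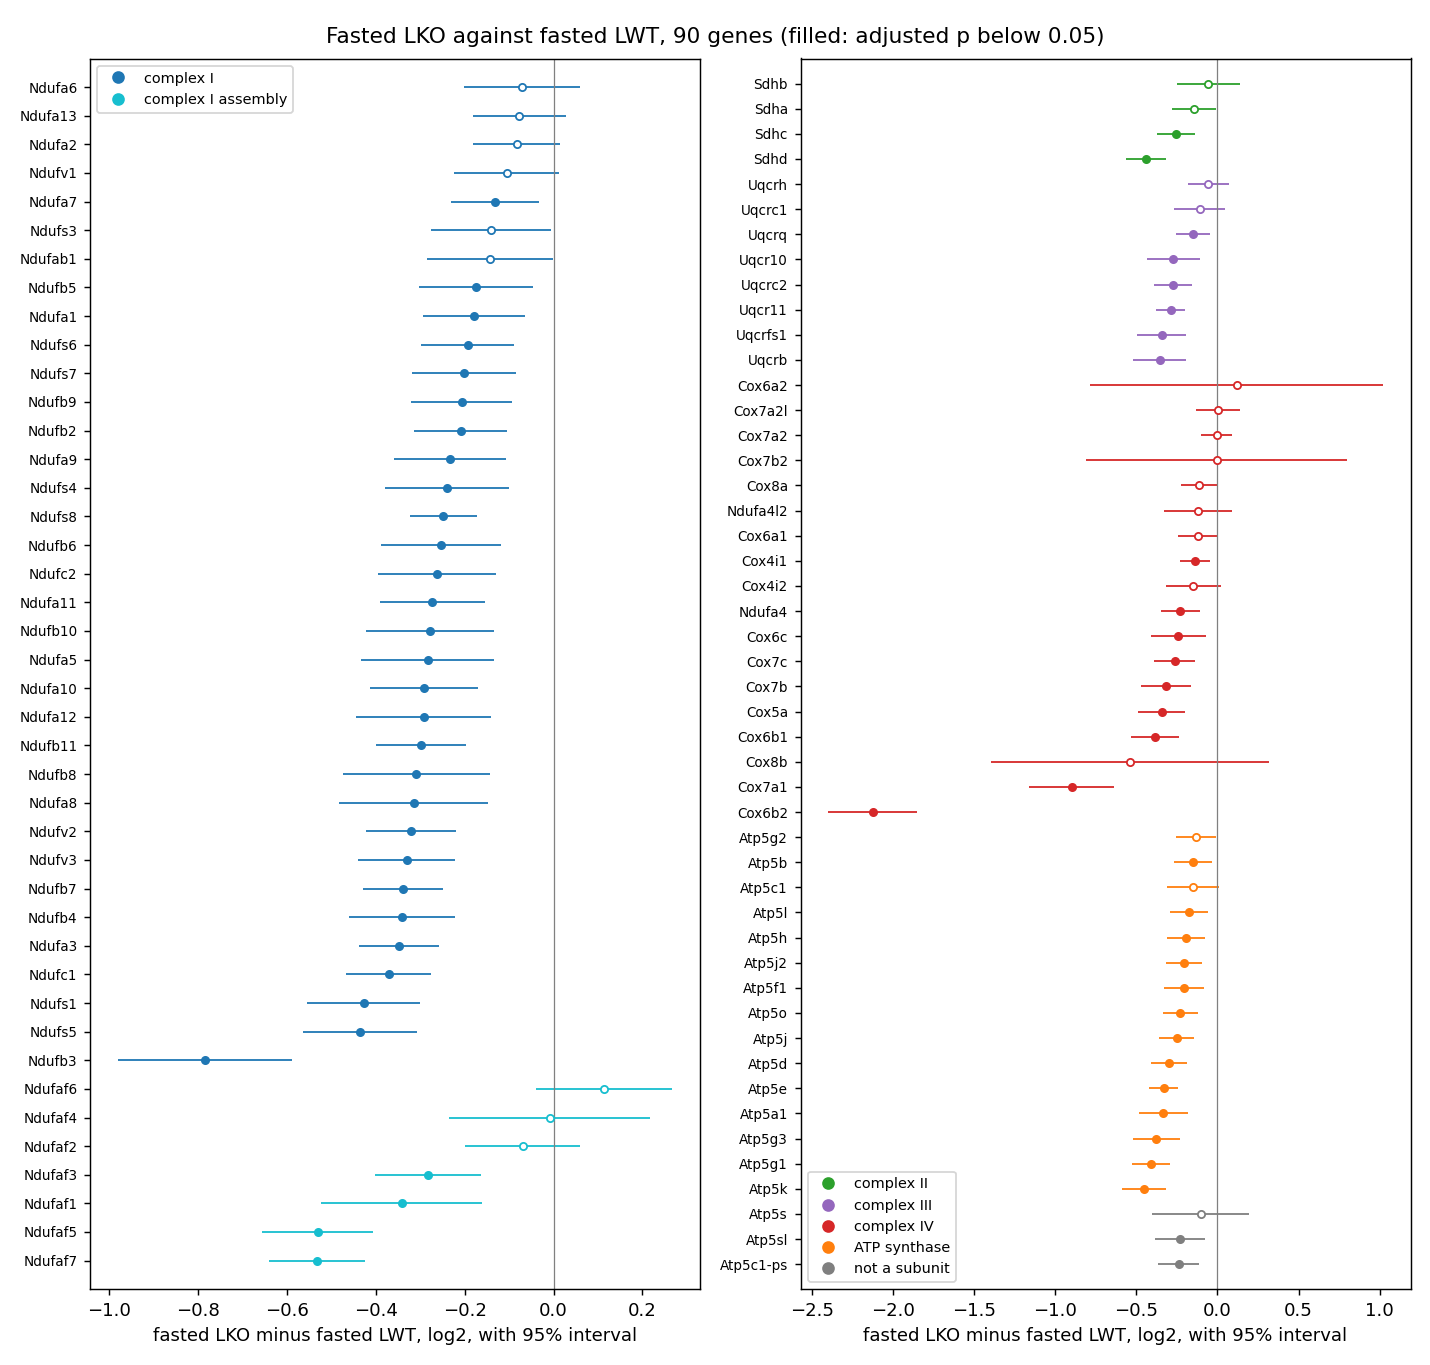
Difference between fasted LKO and fasted LWT (log2, x axis) for 90 of the 91 genes, coloured by complex, with its 95% interval from the fit. Filled points passed an adjusted p of 0.05; 87 of the 90 points lie below 0, and Cox6b2 lies farthest out at -2.12.

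Lower members were found in every complex. In fasted LKO 30 of the 36 complex I subunits, 4 of 7 complex I assembly factors, 2 of 4 complex II subunits and 6 of 8 complex III subunits were lower. Of the 10 widely expressed complex IV subunits 7 were lower, as were 13 of 15 ATP synthase subunits. Over all genes 21.4% were lower. The tissue isoforms of complex IV, with 2 of 7 lower and a median of -0.15, were near that share. The class medians were -0.27 for complex I subunits, -0.28 for its assembly factors, -0.20 for complex II, -0.27 for complex III, -0.23 for general complex IV subunits and -0.23 for ATP synthase.

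The 4 groups were also compared by the mean deviation of each complex in each mouse. For complex I the fasted LKO mice ranged from -0.20 to -0.13 with a median of -0.18. Fed LWT mice ranged from -0.01 to 0.10, fasted LWT mice from 0.03 to 0.17 and fed LKO mice from -0.15 to 0.14. The fasted LKO mice lay below every LWT mouse in all 6 classes, and among fed LKO mice only replicate 3 lay as low, in every class except the assembly factors. The complex I assembly factors differed from the other classes in their LWT values, with 0.10 to 0.22 in fed LWT and -0.11 to 0.05 in fasted LWT.

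**Figure D2:**
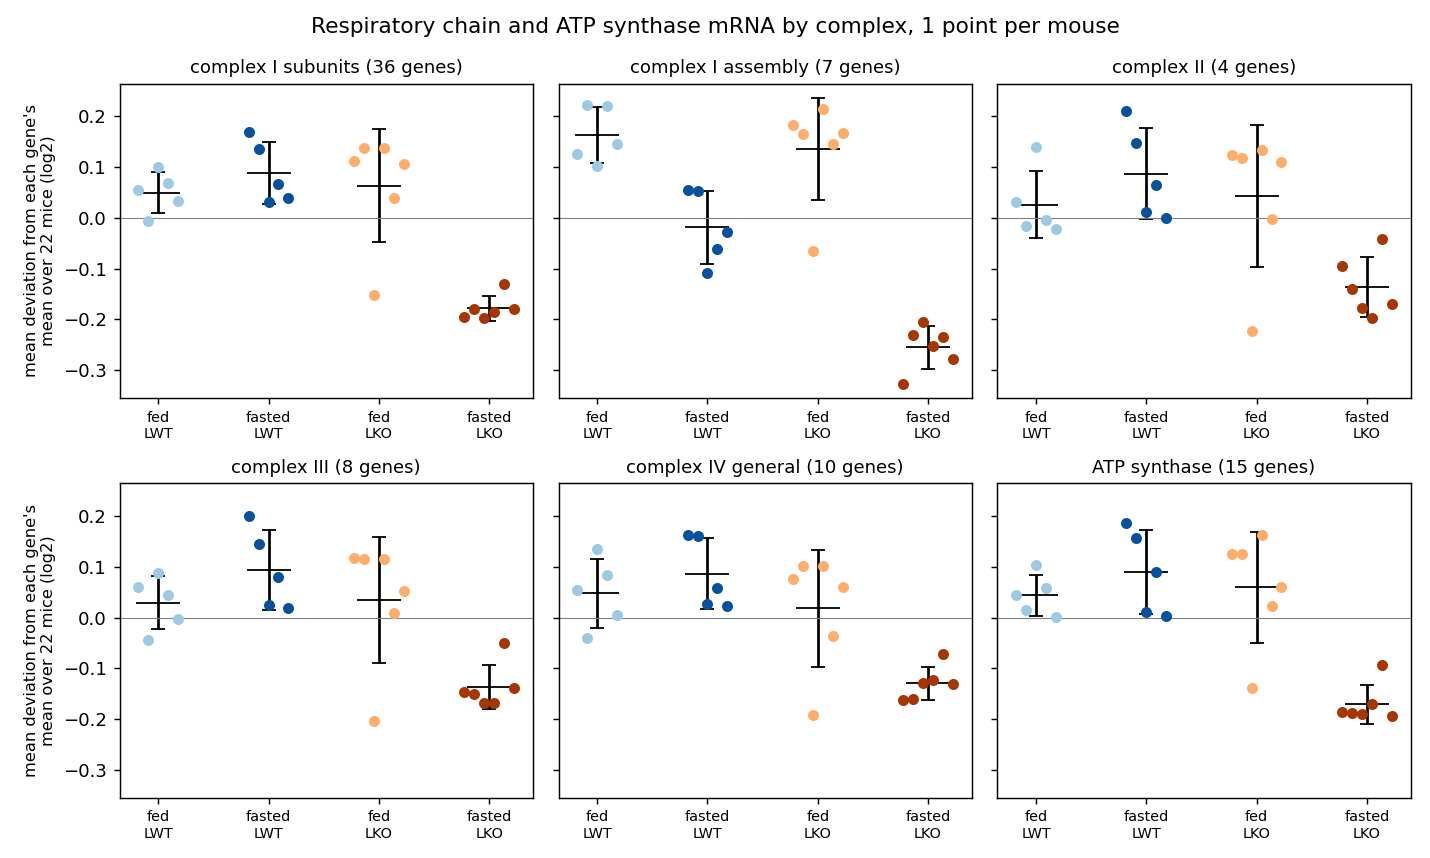
Mean deviation of the genes of each complex from their own means over the 22 mice (log2, y axis), with 1 point per mouse and the group mean ± SD in black. Fasted LKO mice sit below all LWT mice in each panel, and the single low fed LKO point in each is replicate 3.

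Markers of other cell types were read beside this comparison. All 6 endothelial markers were lower in fasted LKO than in fasted LWT, and 4 had a lower fasting response in LKO than in LWT, with summed signals of 35.1 to 43.2 and 49.6 to 76.3 times the 75th percentile. Of the brown or white adipocyte markers tested (3 of 5), 2 were lower, Fabp4 (-0.71) and Cidea (-1.76). The summed signals were 2.45 to 3.91 against 4.68 to 6.84. Cidea was well above background in 5 of the 22 mice, the fewest the filter allows, and was also called lower in fed LKO (-1.74). Its calls may depend on the filter and are not relied on. Of the 5 macrophage markers 1 was lower and 0 higher, namely Vsig4 (-0.45, limma adjusted p = 0.035). Clec4f (0.24) and Cd68 (0.05) had the opposite sign and were not called. Of 4 cholangiocyte and 3 red blood cell markers, 1 each was higher and 0 lower. These were Sox9 and Alas2 (0.78 and 0.46, limma adjusted p = 0.0018 and 0.0013). Both were also called higher in fed LKO, at 0.83 and 0.47. The part of these shifts in the members' result was not tested. Of the 7 stellate or smooth muscle markers 0 were called between fasted genotypes by limma (1 at an unadjusted p below 0.05 and 1 by limma-trend), at 10.7 to 13.1 in LKO and 11.0 to 13.0 in LWT. Within the 3 slides, the median difference of the 91 members was -0.26, -0.28 and -0.25, where slides 1 and 2 share fasted LWT replicate 1.

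Fasting changed the members little in LWT liver and lowered most of them in LKO liver. In LWT 19 rose and 9 fell of 91, against 23.1% and 21.2% of all genes (44.4% in either direction), with a median change of 0.05 against 0.01 over all genes. In LKO 2 rose and 58 fell, against 23% and 26.7% of all genes (49.7% in either direction), with a median of -0.21 against -0.04. With fed LKO replicate 3 included, every fasted LKO mouse lay below every fed LKO mouse in 26 of the 91 (14.1% of all genes) and above in 1 (13.2%). Every fasted LWT mouse lay above every fed LWT mouse in 15 (17.7% of all genes) and below in 8 (16.6%). Without fed LKO replicate 3, 67 members fell in LKO and 1 rose. The split in LWT depended on the processing: with quantile normalization 16 rose and 21 fell, and 14 rose and 18 fell of the 89 members in the authors' deposited log2 table.

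The 2 fasting responses differed in 45 of the 91 members, all with the lower value in LKO, against 11.1% of all genes with a lower value and 7.5% with a higher one (18.6% in either direction). The median of this difference (LKO change less LWT change) was -0.26, against -0.04 over all genes, and -0.16 with quantile normalization and in the authors' deposited table. At an unadjusted p below 0.05 the counts were 62 lower and 0 higher. Without fed LKO replicate 3 the count was 66, and 71 members were then lower between fasted genotypes. With quantile normalization it was 25, with scaling to the array median 21 and it was 24 of 89 in the authors' deposited table, each in the same direction. Within the 3 slides the median was -0.19, -0.31 and -0.29.

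**Figure D3:**
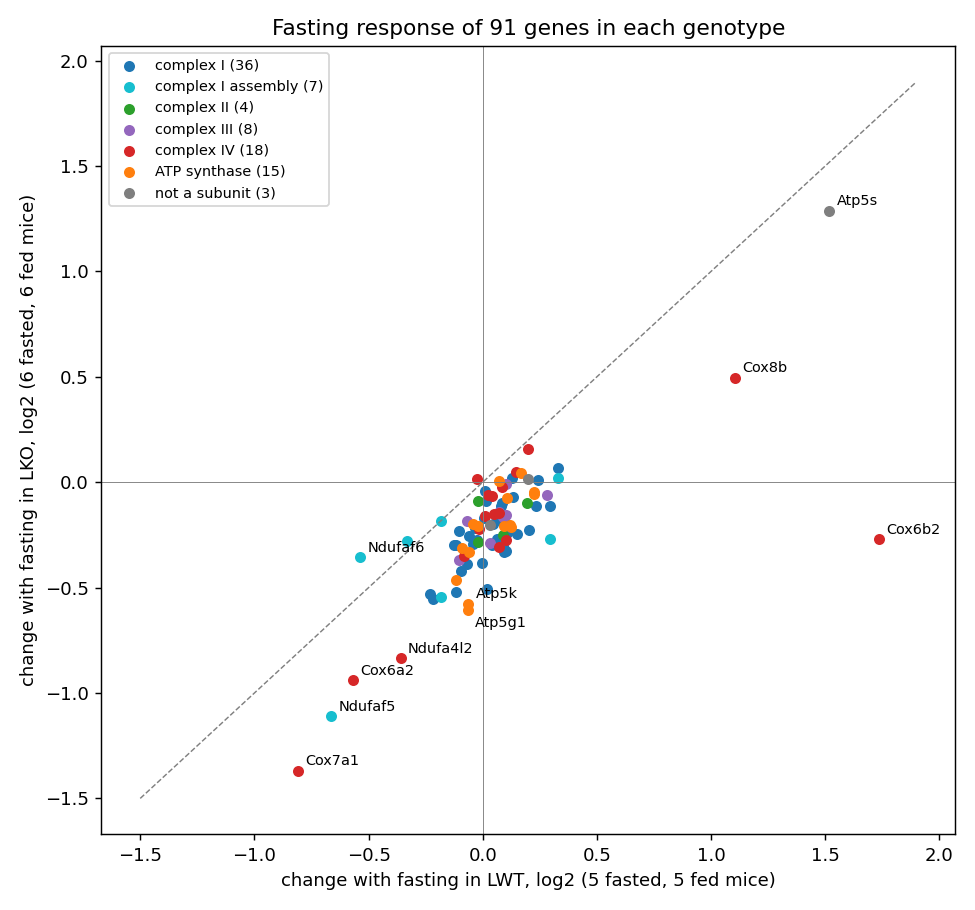
Change with fasting in LWT (x axis) against the change in LKO (y axis), both in log2, for the 91 genes coloured by complex; the dashed line marks equal changes. The 2 axes share no mice, and 88 of 91 points lie below the line.

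In the fed state the genotypes differed little. In fed mice 1 of the 91 members was higher in LKO and 0 were lower, against 1.77% and 2.25% of all genes (4.02% in either direction), and the median difference was -0.01. Every fed LKO mouse lay above every fed LWT mouse in 4 members (1.51% of all genes) and below in 1 (2.18%). At an unadjusted p below 0.05, 7 members were higher and 3 lower in LKO. The called gene was Ndufab1, the mitochondrial acyl carrier protein and an accessory subunit of complex I. Its levels were 6.26, 6.22, 6.24, 6.21 and 6.29 in fed LWT and ran from 6.17 to 6.61 with a median of 6.55 in fed LKO. The groups overlapped through fed LKO replicate 3 alone, the lowest of the 11 mice. Ndufab1 was higher in fed LKO by 0.25 ± 0.07 (SE; limma adjusted p = 0.043, lost in 18 of the 22 fits that left out 1 mouse, with adjusted p up to 0.1). The call held without fed LKO replicate 3, fasted LWT replicates 2 or 3, or fasted LKO replicate 3. Without fed LKO replicate 3, 4 members were called, all higher in LKO.

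**Figure D4:**
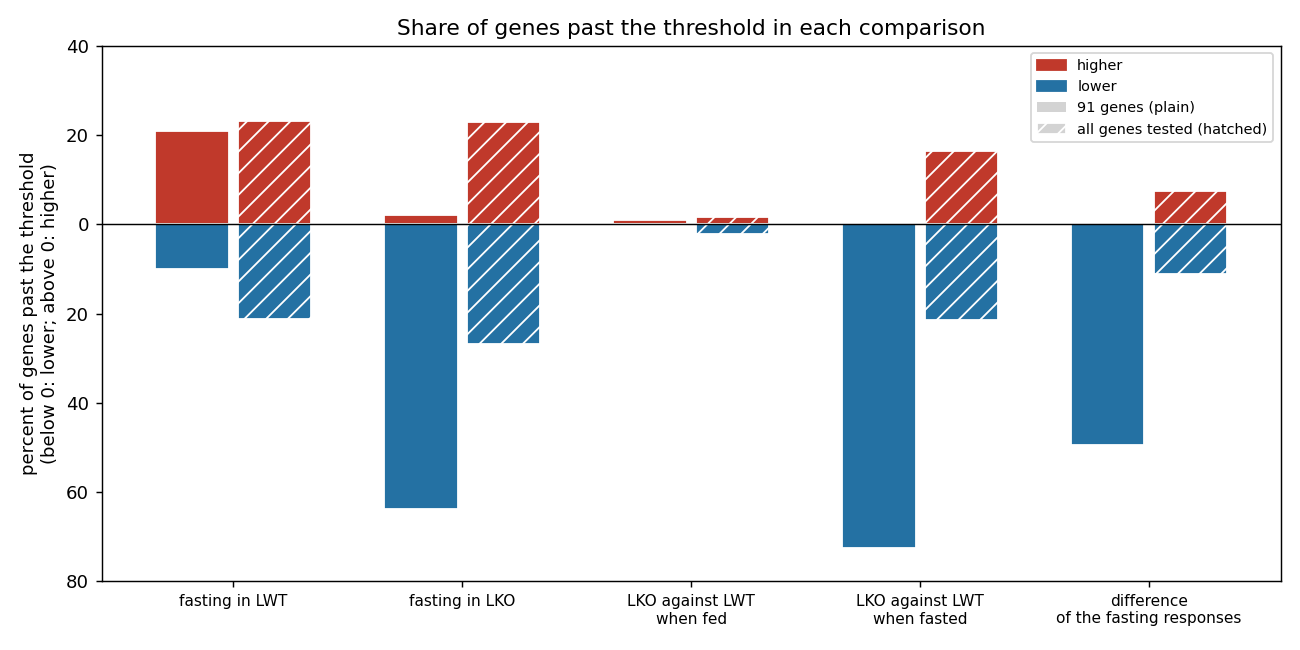
Percent of genes past an adjusted p of 0.05 in each comparison, higher above 0 and lower below 0, for the 91 members (plain bars) and all 17215 genes tested (hatched bars). In fasted LKO against fasted LWT 72.5% of the members were lower against 21.4% of all genes.

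Complex I core subunits carry the flavin and iron-sulfur clusters that pass electrons from NADH to ubiquinone. Of the 7 nuclear ones, 5 were lower in fasted LKO than in fasted LWT, while 4 rose and 1 fell with fasting in LWT. The shares of all genes were 21.4% lower in fasted LKO, and 23.1% rising and 21.2% falling with fasting in LWT. Ndufs1, an iron-sulfur subunit of the electron input arm (probe at chr1:63190360-63190419, build mm9), read 5.87, 5.86, 5.92, 5.83 and 5.88 in fed LWT and 6.30, 6.28, 6.10, 6.12 and 6.04 in fasted LWT. In LKO it ran from 5.65 to 5.98 with a median of 5.90 when fed and from 5.65 to 5.87 with a median of 5.71 when fasted. All fasted LWT mice lay above all other mice. The fasting change was 0.30 ± 0.06 in LWT (adjusted p = 0.00077) and -0.11 ± 0.06 in LKO (adjusted p = 0.12), and the genotypes differed by -0.43 ± 0.06 when fasted (adjusted p = 1.5e-05). The LKO fasting change of Ndufs1 passed without fed LKO replicate 3, at -0.15. Ndufs7, which holds the last cluster before ubiquinone, also rose in fasted LWT, by 0.33. Ndufv2, a partner of Ndufv1, rose by 0.15, a call lost without fed LWT replicate 5 or fasted LWT replicate 1 or 2 (0.13 to 0.14).

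Ndufs8, another iron-sulfur subunit, fell in both genotypes. Its levels were 6.52, 6.50, 6.58, 6.53 and 6.53 in fed LWT and 6.39, 6.28, 6.28, 6.31 and 6.30 in fasted LWT. They ran from 6.58 to 6.65 with a median of 6.62 in fed LKO and from 6.01 to 6.13 with a median of 6.06 in fasted LKO. Fed and fasted mice did not overlap in either genotype. The change was -0.22 ± 0.04 in LWT (adjusted p = 9.4e-05) and -0.55 ± 0.03 in LKO (adjusted p = 2.0e-10), and these changes differed by -0.33 ± 0.05 (adjusted p = 0.00017). Ndufv1, the NADH-binding flavoprotein, differed by -0.11 ± 0.06 and Ndufs3 by -0.14 ± 0.07 between fasted genotypes, both short of the threshold (adjusted p = 0.16 and 0.096). Without fed LKO replicate 3, Ndufs3 passed at -0.14.

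Accessory subunits of complex I surround the core and stabilise it. In fasted LKO 25 of 29 were lower than in fasted LWT, and 24 fell with fasting in LKO against 1 in LWT, where 2 rose. Over all genes, 21.4% were lower in fasted LKO, 26.7% fell with fasting in LKO, and in LWT 23.1% rose and 21.2% fell. Ndufb3, a small membrane-arm subunit, had the largest difference among them. Its levels were 6.09, 6.13, 6.09, 6.21 and 6.07 in fed LWT and 6.23, 6.20, 6.08, 6.02 and 6.14 in fasted LWT. They ran from 5.30 to 6.05 with a median of 5.94 in fed LKO and from 5.31 to 5.42 with a median of 5.34 in fasted LKO. All fasted LKO mice lay below all LWT mice, and among fed LKO mice only replicate 3 lay as low. Ndufb3 was lower, at -0.78 ± 0.09 in fasted LKO (1.72-fold, adjusted p = 1.6e-06). It changed by 0.02 ± 0.10 with fasting in LWT (adjusted p = 0.91) and fell in LKO (change -0.51 ± 0.09, adjusted p = 8.5e-05). With fasting in LKO the accessory subunit Ndufa8 fell most (change -0.53). Ndufs5, Ndufc1 and Ndufa3 followed Ndufb3, at -0.43, -0.37 and -0.35 between fasted genotypes. Ndufa2, Ndufa6, Ndufa13 and Ndufab1 were the 4 that did not pass there, at -0.08, -0.07, -0.08 and -0.14.

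The complex I assembly factors moved in different directions. With fasting in LWT, 2 of 7 rose and 4 fell, and in LKO 0 rose and 6 fell. Of all genes, 23.1% rose and 21.2% fell in LWT, and 23% rose and 26.7% fell in LKO. The 2 that rose in LWT are thus near the share of all genes. Ndufaf7, a methyltransferase, read 2.59, 2.79, 2.58, 2.81 and 2.59 in fed LWT and 3.06, 2.90, 2.92, 2.94 and 3.02 in fasted LWT. It ran from 2.62 to 2.77 with a median of 2.69 in fed LKO and from 2.36 to 2.49 with a median of 2.45 in fasted LKO. Fasted LWT mice lay above all others and fasted LKO mice below all others. It rose by 0.30 ± 0.05 in LWT (adjusted p = 0.00015) and changed by -0.27 ± 0.05 in LKO (adjusted p = 0.00014). The difference of the responses was -0.56 ± 0.07 (adjusted p = 2.9e-05), and its other probe gave -0.58.

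Ndufaf5, which hydroxylates Ndufs7, fell in both genotypes. It read 1.05, 1.18, 1.10, 1.08 and 0.96 in fed LWT and 0.42, 0.46, 0.30, 0.47 and 0.41 in fasted LWT. It ran from 0.89 to 1.15 with a median of 0.96 in fed LKO and from -0.28 to 0.05 with a median of -0.14 in fasted LKO. Fed mice were highest, fasted LWT mice lower and fasted LKO mice lowest, with no overlap between these levels. The change was -0.66 ± 0.06 in LWT (adjusted p = 6.0e-08) and -1.11 ± 0.06 in LKO (adjusted p = 1.3e-11), and the difference was -0.45 ± 0.08 (adjusted p = 0.00099). A second probe of the same transcript gave -0.38 and -0.44 for the 2 changes and -0.06 for their difference, which did not pass (adjusted p = 0.86). Ndufaf3 rose in LWT by 0.33, while Ndufaf6 fell in both genotypes (changes of -0.54 in LWT and -0.36 in LKO). Ndufaf1 fell in LKO (change -0.55).

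Complex II has 4 subunits, all nuclear, and also acts in the citric acid cycle as succinate dehydrogenase. The 2 membrane anchors were lower in fasted LKO and the 2 catalytic subunits did not pass. Sdhd read 6.78, 6.68, 6.82, 6.66 and 6.66 in fed LWT and 7.05, 6.94, 6.82, 6.89 and 6.88 in fasted LWT. It ran from 6.41 to 6.70 with a median of 6.59 in fed LKO and from 6.40 to 6.57 with a median of 6.46 in fasted LKO. Each fasted LWT mouse lay above each fasted LKO mouse, and fed and fasted LKO overlapped. Sdhd rose by 0.19 ± 0.06 in LWT (adjusted p = 0.013) and differed by -0.44 ± 0.06 between fasted genotypes (adjusted p = 5.6e-06). Sdhc, the other anchor, did not pass in LWT (0.09 ± 0.06), fell in LKO (-0.25 ± 0.05, adjusted p = 0.00069) and differed by -0.25 ± 0.06 when fasted (adjusted p = 0.0014).

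Sdhb, the iron-sulfur subunit, fell with fasting in LKO (change -0.28 ± 0.09, adjusted p = 0.012), and its fasted genotypes differed by -0.06 ± 0.09 with a 95% interval of -0.25 to 0.14. Without fed LKO replicate 3 Sdhb was higher in fed LKO by 0.30 (adjusted p = 0.0096), and its fasting responses then differed by -0.35. Sdha, the flavoprotein, did not pass in any comparison by its brightest probe, at -0.14 ± 0.07 when fasted (adjusted p = 0.094). A second Sdha probe for the same transcript gave -0.31 there and passed (adjusted p = 0.0015 in a fit over all probes). Without fed LKO replicate 3 the brightest probe passed as well, at -0.14.

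Complex III was lower in fasted LKO through Uqcrfs1, Uqcrb, Uqcr10, Uqcr11, Uqcrq and Uqcrc2. Uqcrfs1, the Rieske iron-sulfur protein, read 6.14, 6.05, 6.26, 6.16 and 6.12 in fed LWT and 6.50, 6.51, 6.40, 6.38 and 6.35 in fasted LWT. It ran from 5.82 to 6.31 with a median of 6.23 in fed LKO and from 5.97 to 6.17 with a median of 6.10 in fasted LKO. Fasted LWT mice lay above all other mice. It rose by 0.28 ± 0.08 in LWT (adjusted p = 0.0047) and differed by -0.34 ± 0.07 between fasted genotypes (adjusted p = 0.00086). Uqcr11, a small subunit, fell in LKO (change -0.37) and was -0.10 in LWT, short of the threshold (adjusted p = 0.073). The core proteins Uqcrc1 and Uqcrc2 differed by -0.11 ± 0.08 (adjusted p = 0.28) and -0.27 ± 0.06 (adjusted p = 0.00063) when fasted. Uqcrb, which sits near the ubiquinone sites, was lower, at -0.36. Uqcrh, the hinge protein, did not pass in any comparison and was -0.06 ± 0.06 there.

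Complex IV genes differed widely in size of change. Cox7a2, the liver-type form of subunit 7a, stayed between 7.14 and 7.34 in all 22 mice, and its fasted genotypes differed by 0.00 ± 0.05 (95% interval -0.10 to 0.09). The nuclear subunits Cox4i1 and Cox5a were lower in fasted LKO, at -0.14 and -0.34 (adjusted p = 0.016 and 0.00055). Cox4i1 did not pass there with quantile normalization, at -0.10. Cox6b1, the widely expressed subunit 6b, read 4.85, 4.80, 5.02, 4.88 and 4.77 in fed LWT and 5.02, 5.12, 4.84, 4.97 and 4.88 in fasted LWT. It ran from 4.59 to 4.97 with a median of 4.90 in fed LKO and from 4.50 to 4.72 with a median of 4.55 in fasted LKO. All fasted LKO mice lay below all LWT mice. The fasted genotypes differed by -0.39 ± 0.07 (adjusted p = 0.00021). Cox7b, a small subunit, was lower as well, at -0.32.

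Cox6b2, known as the testis isoform of subunit 6b, had the largest difference between fasted genotypes of any member (probe at chr7:4703488-4703547, build mm9). Its levels were -1.88, -1.94, -1.80, -1.49 and -1.90 in fed LWT and 0.02, -0.10, 0.03, -0.09 and -0.20 in fasted LWT. They ran from -2.33 to -1.64 with a median of -1.90 in fed LKO and from -2.60 to -1.90 with a median of -2.20 in fasted LKO. The 5 fasted LWT mice stood well above the other 17, whose ranges overlapped. With fasting it rose 3.33-fold in LWT (1.74 ± 0.14, adjusted p = 6.4e-09). In LKO its change was -0.27 ± 0.12 and did not pass (adjusted p = 0.079), though it passed without fed LKO replicate 1, fasted LKO replicate 2 or fasted LKO replicate 4, at -0.35 to -0.32. The difference of the responses was -2.01 ± 0.19 (adjusted p = 5.5e-07). When fasted, LKO was 4.36-fold lower (-2.12 ± 0.13, adjusted p = 1.4e-10), and within the 3 slides this was -2.27, -2.26 and -1.89. Of the testis markers Prm1, Tnp1 and Ldhc, 2 were tested and 0 were called in any comparison by limma or limma-trend (0 at an unadjusted p below 0.05). Their summed signal lay at 0.197 to 0.393 in fasted LWT, 0.226 to 0.326 in fed LWT, 0.261 to 0.402 in fed LKO and 0.188 to 0.823 in fasted LKO.

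**Figure D5:**
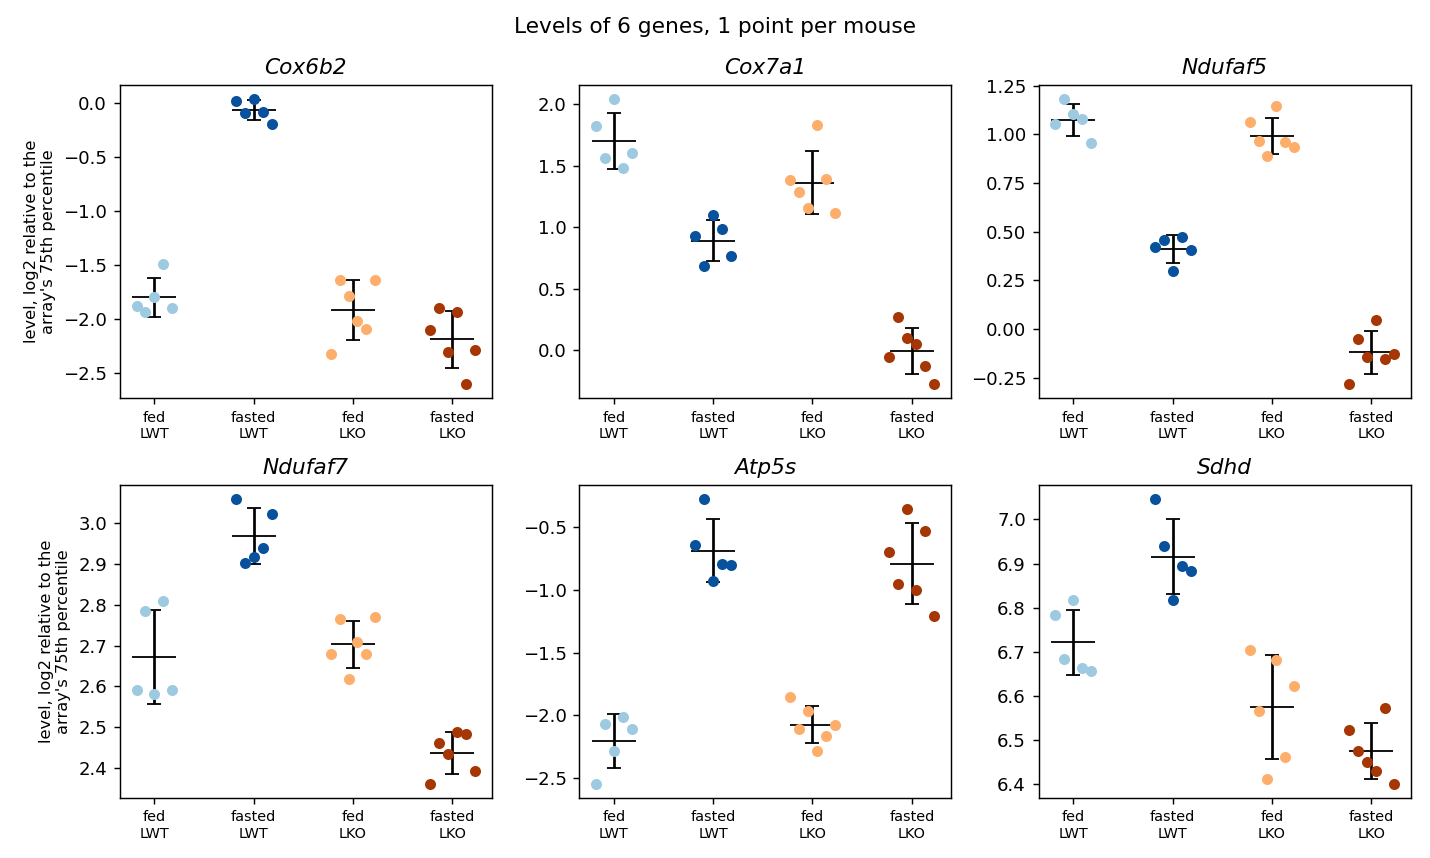
Levels of 6 genes in each mouse (log2 relative to the array's 75th percentile, y axis; the scales differ), with the group mean ± SD in black. Cox6b2 is high in fasted LWT alone, Atp5s is higher in both fasted groups, and Ndufaf7 moves in opposite directions in the 2 genotypes.

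Cox7a1, the heart and muscle form of subunit 7a, fell in both genotypes (probe at chr7:30970337-30970948, build mm9). It read 1.82, 1.56, 2.04, 1.49 and 1.60 in fed LWT and 0.93, 0.68, 1.10, 0.98 and 0.77 in fasted LWT. It ran from 1.12 to 1.83 with a median of 1.34 in fed LKO and from -0.27 to 0.27 with a median of 0.00 in fasted LKO. Fed and fasted mice did not overlap in either genotype, and fasted LKO lay below fasted LWT. The fall was 1.75-fold in LWT (adjusted p = 4.4e-05) and 2.58-fold in LKO (adjusted p = 1.5e-08). The responses differed by -0.56 ± 0.18 (adjusted p = 0.034). That call was lost without fed LWT replicate 2, 4 or 5, fasted LWT replicate 1, 3 or 4, or fasted LKO replicate 1, 5 or 6, with adjusted p up to 0.068 and values of -0.55 to -0.50. In fed mice LKO was -0.34 ± 0.13 and did not pass (adjusted p = 0.16), but passed at -0.43 without fed LKO replicate 4. Of the 6 skeletal or heart muscle markers 4 were not tested, and 0 of the other 2 were called by limma or limma-trend (0 at an unadjusted p below 0.05), with a summed signal of 0.303 to 0.571 over all mice. Of the 7 stellate or smooth muscle markers 4 were lower with fasting in LWT and 6 in LKO, at 15.1 to 20.3 in fed mice and 10.7 to 13.1 in fasted mice, and their part in the fall of Cox7a1 was not tested.

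Ndufa4l2, the hypoxia-induced relative of the complex IV subunit Ndufa4, also fell in both genotypes. It read -0.24, -0.10, -0.39, -0.10 and -0.15 in fed LWT and -0.48, -0.83, -0.50, -0.47 and -0.48 in fasted LWT. It ran from -0.08 to 0.43 with a median of 0.13 in fed LKO and from -0.86 to -0.43 with a median of -0.68 in fasted LKO. Fed LKO mice were the highest and the 2 fasted groups overlapped. It changed by -0.36 ± 0.11 in LWT (adjusted p = 0.0088) and by -0.83 ± 0.10 in LKO (adjusted p = 5.1e-07), and the responses differed by -0.47 (adjusted p = 0.025, or 0.052 and -0.43 without fed LWT replicate 3). Between fed genotypes it was 0.36 ± 0.10 and missed the threshold (adjusted p = 0.052), and it passed without fed LKO replicate 3 (0.41) or without fasted LWT replicate 2 or fasted LKO replicate 2 (0.36 in both). Ndufa4 itself was lower in fasted LKO, at -0.23.

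The other tissue isoforms gave little signal. Cox4i2, the lung isoform, was not called in any comparison and differed by -0.15 ± 0.08 between fasted genotypes. Cox6a2, a heart and muscle isoform, and Cox7b2, a testis isoform, were well above background in 20 and 8 of the 22 mice and were not called. Without fed LWT replicate 5 or without fed LKO replicate 2 the fasting change of Cox6a2 in LKO passed, at -0.94 and -1.07, against -0.94 ± 0.41 with all mice (adjusted p = 0.065). Cox8b, a heart and muscle isoform, was well above background in 3 of 5 fasted LWT and 2 of 6 fasted LKO mice and in no fed mouse. It was at least 1.12-fold higher in fasted than in fed LWT, a bound that sets each fed array at the dimmest signal its detected probes reached. The means were -3.93 and -5.04. Cox8b met the detection filter through fasted mice alone, so its test against fed mice is not independent of the filter and supports nothing, though it is counted among the 19 that rose. Cox7a2l, a relative of Cox7a2, rose in LWT by 0.20 and in LKO by 0.16 (limma adjusted p = 0.021 and 0.038). The LWT call was lost without fasted LWT replicate 2 (0.17) and the LKO call without fed LKO replicate 3, 5 or 6 or fasted LKO replicate 3 or 5 (0.10 to 0.16).

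In ATP synthase, 4 of the 5 subunits of the catalytic F1 part, all 4 peripheral stalk subunits tested and 5 of the 6 membrane-part subunits were lower in fasted LKO. The share of all genes lower there was 21.4%. Atp5g1, 1 of 3 genes for the same c-ring protein, read 7.83, 7.75, 7.84, 7.70 and 7.73 in fed LWT and 7.88, 7.76, 7.61, 7.67 and 7.61 in fasted LWT. It ran from 7.85 to 7.98 with a median of 7.90 in fed LKO and from 7.18 to 7.46 with a median of 7.27 in fasted LKO. All fasted LKO mice lay below all other mice. It fell in LKO (change -0.61 ± 0.05, adjusted p = 1.4e-08) and changed by -0.06 ± 0.06 in LWT (adjusted p = 0.4), and the responses differed by -0.54 ± 0.08 (adjusted p = 9.4e-05). A second probe gave similar values (-0.66 and -0.08). The remaining probe, annotated to another transcript, turned the direction: it rose by 0.32 in LWT and 0.23 in LKO (adjusted p = 0.0023 and 0.0097 in a fit over all probes). Atp5g3 was lower in fasted LKO, at -0.38, while Atp5g2 was -0.13 ± 0.06 and did not pass (adjusted p = 0.087).

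Atp5k, subunit e, which helps ATP synthase form dimers, read 7.49, 7.42, 7.59, 7.56 and 7.42 in fed LWT and 7.59, 7.49, 7.31, 7.37 and 7.40 in fasted LWT. It ran from 7.34 to 7.67 with a median of 7.61 in fed LKO and from 6.87 to 7.12 with a median of 6.96 in fasted LKO. Fasted LKO mice lay below all others. It fell in LKO (-0.58 ± 0.06, adjusted p = 2.2e-07) and differed by -0.45 ± 0.07 between fasted genotypes (adjusted p = 1.6e-05). The F1 subunits Atp5a1 (alpha) and Atp5d (delta) were lower in fasted LKO, at -0.33 and -0.30, Atp5e (epsilon) was lower, at -0.33, and the stalk subunit Atp5o (OSCP) at -0.23. The catalytic beta subunit Atp5b was lower, at -0.15 ± 0.06 (adjusted p = 0.039), a call lost without fasted LWT replicate 1, 2 or 4 or fasted LKO replicate 1, 2, 4 or 6, at -0.15 to -0.13. A second Atp5b probe for the same transcript gave -0.40 between fasted genotypes. With fasting in LWT that probe rose by 0.35 (limma adjusted p = 0.0068 in a fit over all probes).

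Atp5s, the coupling factor B gene, rose with fasting in both genotypes. It read -2.55, -2.07, -2.29, -2.02 and -2.11 in fed LWT and -0.64, -0.27, -0.93, -0.79 and -0.80 in fasted LWT. It ran from -2.28 to -1.86 with a median of -2.10 in fed LKO and from -1.21 to -0.35 with a median of -0.82 in fasted LKO. Fed and fasted mice did not overlap in either genotype, and the genotypes overlapped in both states. It rose 2.87-fold in LWT (adjusted p = 1.1e-07) and 2.44-fold in LKO (adjusted p = 1.6e-07), and the fasted genotypes differed by -0.10 (95% interval -0.40 to 0.20).

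Genes that work beside the complexes were counted from lists. Between fasted genotypes, 21.4% of all genes were lower in LKO and 16.5% higher. A list of electron carrier genes (ubiquinone synthesis and cytochrome c) and complex III subunits outside the name rule had 14 tested genes. Of these, 10 were lower and 1 higher in fasted LKO than in fasted LWT. Coq3, a ubiquinone methyltransferase, was lower, at -0.87 and Cycs, cytochrome c, at -0.65. Of 16 carriers, uncoupling proteins and other electron donors, 13 were lower and 1 higher, led by Etfdh, the flavoprotein that hands electrons of fatty acid oxidation on to ubiquinone, at -2.43. Etfdh, Gpd2 and Etfb were already lower in fed LKO, at -1.26, -0.73 and -0.71, and Prodh, proline dehydrogenase, was higher, at 0.48. Of 13 citric acid cycle genes 10 were lower and 0 higher (1 higher at an unadjusted p below 0.05), with Dlst at -0.97 and Suclg1 at -0.84. With fasting, 10 of the 13 rose and 0 fell in LWT (limma, also at an unadjusted p below 0.05), where 23.1% and 21.2% of all genes did. In LKO 1 rose and 5 fell, against 23% and 26.7% of all genes. Of 43 other assembly factors 24 were lower and 0 higher (29 and 0 at an unadjusted p below 0.05).

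Of 77 mitochondrial ribosomal protein genes, 52 were lower in fasted LKO than in fasted LWT and 1 was higher, with a median of -0.21. The shares of all genes were 21.4% and 16.5%. With fasting 14 of them rose and 20 fell in LWT, near the shares of all genes (23.1% and 21.2%). In LKO 8 rose and 52 fell, against 23% and 26.7% of all genes. Of 11 mitochondrially encoded subunits 4 were lower, 1 higher and 6 not called in fasted LKO, against 21.4% lower and 16.5% higher of all genes. Their median was -0.11. ND1 was lower, at -0.61, ATP8 at -0.32, and ND6 was higher by 0.29. Of 19 regulators of mitochondrial biogenesis 4 were lower and 4 higher, near the shares of all genes (21.4% and 16.5%). Ppargc1a, the coactivator PGC-1α, rose with fasting by 1.75 in LWT and 1.23 in LKO. Esrrg, an estrogen-related receptor, was not well above background in any LKO mouse and was at least 11.5-fold higher in fasted LWT than in fasted LKO and at least 5.09-fold higher in fed LWT than in fed LKO, bounds taken as for Cox8b. Its measured means were -1.01 and -6.03 when fasted and -2.00 and -6.11 when fed. Esrrg met the detection filter through LWT mice alone, so no test is given for it, though it is counted among the 4 that were lower.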

How the data were processed

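Liver RNA from 22 mice was measured on 24 one-colour Agilent arrays. The deposited scanner files hold processed signal intensity per spot, background-corrected with Agilent Feature Extraction 10.10.1.1, per the submitters' processing notes and the file headers. The authors' deposited log2 table, made with limma per the submitters' processing notes, served as an alternative.

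Control and outlier spots were left out. Intensity was scaled to each array's 75th percentile and taken to log2, spots of a probe and repeat arrays of a mouse were averaged, and each gene was represented by its brightest probe well above background in at least 5 mice. The 4 group means were fitted in limma 3.58.1 (R 4.3.3) to all mice, and 5 contrasts were tested with Benjamini-Hochberg adjustment over 17215 genes. Fits were tested on simulated data. The p-values measure the spread between these mice, and the number of arrays limits precision.

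Members, gene lists and markers were chosen with earlier results of these data known. Genes given with values were the complex II subunits, a core panel of main subunits, the tissue isoforms with their liver-type partners, the 3 called members with the largest change per complex and comparison, members whose fasting responses differed, and the largest changes of each list. Ndufa2, Ndufa6, Ndufa13, Uqcrh and Atp5g2 were added after their values were seen. The values of 1 member are not reported here, though it is counted. Alternatives were quantile normalization, the array median, normexp (offset 50), no filter, well above background in 20 mice, the mean of a gene's probes, slide and replicate blocks, 1 array per mouse, limma-trend with robust variances, the deposited table and leaving out each mouse. RefSeq promoter windows are of build GRCm38.p6, and probe positions of mm9 per the file headers.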

Additional observations from a re-analysis of the deposited data

Results flagged for a closer look

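Groups of 5 or 6 mice were examined for a mouse far from the rest, in the 6 class means and in 29 genes. Of 140 groups, 13 had such a mouse, where chance gives about 1 in 20, and 9 of the 13 were fed LKO replicate 3. Its mean deviation was -0.15 for complex I subunits (0.04 to 0.14 in the other fed LKO mice), -0.065 for the assembly factors (0.15 to 0.21) and -0.20 for complex III (0.01 to 0.12). Its level was 7.46 for Sdhb (7.92 to 8.15), 5.25 for Sdhc (5.42 to 5.48) and 6.67 for Ndufs3 (6.96 to 7.07). It was 6.24 for Uqcrc2 (6.46 to 6.53), 7.81 for Atp5o (7.96 to 8.04) and 2.52 for Ndufaf6 (2.84 to 2.96). Fasted LKO replicate 5 was the highest of its group for complex I subunits at -0.13 (-0.20 to -0.18 in the others), complex III at -0.051 (-0.17 to -0.14) and ATP synthase at -0.093 (-0.19 to -0.17). Fasted LWT replicate 2 was low for Ndufa4l2 at -0.83 (-0.50 to -0.47).

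The fasting response differed between genotypes, by the test of the difference itself (limma, Benjamini-Hochberg), in 45 members. The values are LKO change less LWT change, in log2 units, given for 44 of them. For complex I subunits the differences were those of Ndufs1 (-0.41), Ndufs7 (-0.27), Ndufs8 (-0.33), Ndufv2 (-0.40), Ndufa3 (-0.43), Ndufa5 (-0.35), Ndufa7 (-0.23), Ndufa10 (-0.26), Ndufa11 (-0.25), Ndufab1 (-0.39), Ndufb3 (-0.52), Ndufb4 (-0.38), Ndufb7 (-0.43), Ndufb10 (-0.34), Ndufb11 (-0.25), Ndufc1 (-0.42), Ndufc2 (-0.33), Ndufs5 (-0.40) and Ndufv3 (-0.33). For complex I assembly factors the differences were those of Ndufaf1 (-0.36), Ndufaf3 (-0.31), Ndufaf5 (-0.45) and Ndufaf7 (-0.56). For complex II the differences were those of Sdhc (-0.34) and Sdhd (-0.29). For complex III the differences were those of Uqcrc2 (-0.26), Uqcrfs1 (-0.34), Uqcrb (-0.32) and Uqcr11 (-0.27). For complex IV the differences were those of Cox6b1 (-0.38), Cox7b (-0.38), Cox6b2 (-2.01), Cox7a1 (-0.56) and Ndufa4l2 (-0.47). For ATP synthase the differences were those of Atp5a1 (-0.32), Atp5d (-0.27), Atp5e (-0.35), Atp5h (-0.28), Atp5j (-0.27), Atp5o (-0.30), Atp5g1 (-0.54), Atp5g3 (-0.33), Atp5j2 (-0.22) and Atp5k (-0.51). Of the 22 fits that each left out 1 mouse, the call was lost in 19 for Uqcrb, 18 for Ndufaf1, 15 for Atp5j2, 12 for Ndufa11 and 9 each for Ndufa10, Atp5a1 and Cox7a1, with adjusted p up to 0.094. It was lost in 2 for Uqcrc2 and 1 for Ndufa4l2, and in 0 for the others listed.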

How the results depend on the processing

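Of the 66 members lower in fasted LKO, 41 passed under every alternative, as did 38 of the 60 called with fasting in LKO, 15 of 28 in LWT, 13 of the 45 differences of the responses and 0 of 1 in fed mice. The difference of the responses was called in 25 members with quantile normalization, 21 with the array median and 24 of 89 in the deposited table. In fed mice 2 were called with quantile normalization, with well above background in 20 mice and with limma-trend, and 0 with the array median, the deposited table, no filter, the mean of probes, the slide block and the replicate block. Leaving out 1 mouse gave 22 to 34 calls with fasting in LWT, 52 to 68 in LKO, 0 to 4 between fed genotypes, 60 to 71 between fasted genotypes and 37 to 66 for the difference of the responses. Values with the opposite sign were Ndufv2 with fasting in LKO (0.0516) and for the difference (0.0450) and Ndufa13 with fasting in LKO (0.0523), all by the mean of probes, and Ndufa7 between fasted genotypes (0.0024, quantile normalization). The causes were not tested. The deviations of same-numbered mice had a median r of 0.015 (31 pairs, 5 over 0.1). Differently numbered mice had a median r of -0.0007 (150 pairs, 15 over 0.1). The numbers were not read as pairs. With the replicate block the counts were 25 with fasting in LWT, 57 in LKO, 64 between fasted genotypes and 42 for the difference. The members' median between fasted genotypes was -0.25, and -0.15 with quantile normalization and in the deposited table.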

Other observations

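Of the members, 34 had several probes well above background. Among the 27 of them called lower in fasted LKO, all other probes had the same sign in 24 and were also called in 16, and 0 had a probe called in the opposite direction. With fasting in LKO, 24 were called by the brightest probe and 2 had another probe called in the opposite direction. These were Atp5g1, where a probe for another transcript gave 0.23 (adjusted p = 0.0097) against -0.61, and Atp5j2, at 0.22 (adjusted p = 0.010) against -0.31 (limma, Benjamini-Hochberg).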
